A study of Homo sapiens with 6 samples.

Results

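CDKN1A, BBC3, BTG2, MCL1 and BCL2L1 are 5 genes that set whether a stressed cell stops dividing, dies or survives. They were taken as the rows of the deposited expression table that carry these symbols, and each symbol had 1 row, giving 5 of 6018 listed genes. The genes were chosen with their values in this table known, so their differences are described and not tested. The series measured RNA by sequencing in human prostate cancer cells of the established C4-2B line, which descends from LNCaP xenografts grown in castrated mice. One group is C42-B-Abi, a single subline selected in abiraterone that was raised from 1 to 20 µM and then kept in 5 µM, given as passage 15 to 18 (3 libraries). The other is the parental line C42B, carried along in 1% DMSO and given as passage 0 (3 libraries), so passage number and drug selection cannot be told apart. Both grew in 10% FBS, and the protocol names 10 µM abiraterone before RNA extraction without making clear whether parental cells received it. Abiraterone blocks CYP17A1, an enzyme of androgen synthesis.

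The p53 protein is a transcription factor that is stabilised by DNA damage and other stress. CDKN1A encodes p21, which binds cyclin-dependent kinases and PCNA and halts the cell cycle, and BTG2 encodes an antiproliferative protein that recruits the CCR4-NOT deadenylase to messenger RNAs. BBC3 encodes PUMA, a BH3-only protein that triggers mitochondrial apoptosis by engaging prosurvival BCL2 proteins. MCL1 and BCL2L1 encode such prosurvival proteins; MCL1 is short-lived, and BCL2L1 yields the long form BCL-XL and, by splicing, a shorter form that promotes death. CDKN1A, BBC3 and BTG2 are textbook p53 targets. All 5 genes are also known to respond to signals other than p53.

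The deposited table is a DESeq2 result made by the authors for condition C over condition V, and it has no column per library. Its header calls C control and V vehicle and gives positive log2 fold changes to genes higher in C. The parental titles bear a V and the header ties C to neither line, so directions are stated as C and V and are not translated into selected or parental. The table is a selection, as every listed gene had p under 0.05 and the smallest absolute log2 fold change was 1.20. A gene that is not listed may have missed either limit. A gene was called when the listed adjusted p was under 0.05. The level on each side was worked out from the mean and the fold change, with C and V given equal weight, so these levels carry no error of their own. Depth per library is unknown. Of the line's 10 prostate markers, 3 were listed and called: KLK3 had derived levels of 15170 in C and 3363 in V, KLK2 had 2798 in C and 466 in V, and KRT8, on the other side, had 1364 in C and 3715 in V. Of 6 leukocyte markers 4 were listed and 3 called, each higher in V, with CD3E not listed. The 4 listed ones, called or not, had a summed derived level of 1.56 normalised counts in C and 66.2 in V. The 1 listed endothelial marker, PECAM1, had derived levels of 0.165 in C and 14.9 in V. The 2 listed fibroblast markers were both called, PDGFRB higher in C and COL1A1 higher in V, with a summed derived level of 82.5 in C and 297 in V. Of all listed protein-coding genes 92.6% were called, 31.6% with the higher value in C and 61.0% with the higher value in V. Nothing is read from the counts of these markers. The part of these markers in the results below was not tested.

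Promoter sequence is shown for the members as a description. They lay on the same side of the comparison, but they were chosen with these values known. RefSeq promoter windows (GRCh38.p14) were found for 4 of the 5 genes, in 5 windows, with none for MCL1. The upstream 250 bases before the annotated start are printed 5′ to 3′ on the gene's strand, and capitals mark matches to the motifs listed after them. The CDKN1A stretch is chr6:36678464-36678713 on the plus strand, that of BTG2 is chr1:203305269-203305518 on the plus strand, that of BBC3 is chr19:47232668-47232917 on the minus strand, and the farther upstream of the 2 for BCL2L1 is chr20:31723964-31724213 on the minus strand.
CDKN1A: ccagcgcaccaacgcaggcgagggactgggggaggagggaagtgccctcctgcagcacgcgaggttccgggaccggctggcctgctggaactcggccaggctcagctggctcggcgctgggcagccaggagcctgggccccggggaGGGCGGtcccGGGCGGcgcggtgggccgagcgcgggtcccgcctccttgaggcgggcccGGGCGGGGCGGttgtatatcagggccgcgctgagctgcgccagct
BTG2: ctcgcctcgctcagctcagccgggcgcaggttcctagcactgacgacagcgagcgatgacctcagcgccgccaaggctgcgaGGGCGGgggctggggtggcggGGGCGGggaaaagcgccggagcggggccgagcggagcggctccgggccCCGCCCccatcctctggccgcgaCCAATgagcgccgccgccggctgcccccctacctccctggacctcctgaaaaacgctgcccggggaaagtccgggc
BBC3: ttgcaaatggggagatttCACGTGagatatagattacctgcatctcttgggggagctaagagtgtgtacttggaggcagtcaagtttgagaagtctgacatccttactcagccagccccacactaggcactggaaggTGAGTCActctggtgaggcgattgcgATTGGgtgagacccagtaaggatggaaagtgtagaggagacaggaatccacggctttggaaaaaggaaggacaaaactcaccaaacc
BCL2L1: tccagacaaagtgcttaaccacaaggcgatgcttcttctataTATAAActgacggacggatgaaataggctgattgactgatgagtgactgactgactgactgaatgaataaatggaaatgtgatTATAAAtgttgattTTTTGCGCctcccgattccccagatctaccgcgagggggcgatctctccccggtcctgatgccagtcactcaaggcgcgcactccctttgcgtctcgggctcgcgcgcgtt
The motifs, searched on both strands over the whole window of 300 bases, were the GC box GGGCGG, the CCAAT box, the TATA box TATAAA, the AP-1 site TGANTCA, the E-box CACGTG, the E2F site TTTNGCGC, the ETS site CCGGAAGT, the cyclic AMP response element TGACGTCA, the heat shock pair GAANNTTC, the interferon-stimulated response element core (GAAA, any 2 bases, GAAA), and the NF-kB, CArG and p53 elements, searched by consensus. The p53 element was a pair of decamers with up to 13 bases between them and up to 2 mismatches in all.

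The 4 genes with windows differed in base composition and motifs. CDKN1A and BTG2 had GC-rich stretches, 76.4% and 74.8% G or C, against a median of 58.0% over 35116 windows. The CDKN1A stretch held 4 GC boxes, of which the 2 nearest the start share a base, and the BTG2 stretch held 3 GC boxes and a CCAAT box. GC boxes were found in 45.0% of all windows and CCAAT boxes in 34.6%. The BBC3 stretch was 49.2% G or C, with an E-box, an AP-1 site and a CCAAT box, the first 2 found in 7.26% and 7.71% of all windows. The upstream BCL2L1 stretch was 50.0% G or C and held 2 TATA boxes more than 100 bases before the start (11.5% of windows have one) and an E2F site (1.79%). Just after its start an ETS site followed (4.14%). The other BCL2L1 window held a GC box across its start and no other motif. None of the 5 windows had a match to the p53 (2.93% of windows), NF-kB (5.91%), CArG (1.29%), cyclic AMP (1.85%) or heat shock (6.77%) patterns. That says only that these letters are not in these windows; the well-known p53 sites of CDKN1A lie farther upstream.

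Of the 4 genes with a window, BBC3 alone held interferon-stimulated response element cores, a pattern found in 3.57% of all windows. Its window held 2 overlapping matches, 25 to 40 bases after the annotated start. The 24 bases around them, chr19:47232624-47232647 on the minus strand, are given with the matches in capitals.
BBC3 site: aatgaGAAACTGAAAAAGAAAcgg
A match is a description of letters and not evidence of binding.

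Each of the 5 genes was called, and each was higher in V. Of all listed genes 89.4% were called, 46.0% with the higher value in C and 43.4% with the higher value in V. Of listed protein-coding genes 92.6% were called, 31.6% toward C and 61.0% toward V, so 65.9% of the called ones were higher in V. With an added limit of 2 on the absolute log2 fold change, CDKN1A and BBC3 remained called, beside 26.2% of all listed genes toward V. Because the members were chosen on this contrast, nothing is read from that count. The log2 fold changes of C over V ran from -2.86 to -1.43 with a median of -1.51. The median was 1.24 over all 5380 called genes, -1.55 over called protein-coding genes and -2.35 over the 1802 of those that were higher in V.

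CDKN1A (ENSG00000124762), at chr6:36676460-36687339 on the plus strand in GENCODE release 29 (GRCh38), had the largest fold change of the 5. It had a mean of 2344 normalised counts over all samples in the authors' deposited table, and derived levels of 566 in C and 4121 in V. The listed log2 fold change was -2.86 ± 0.07 (SE) in the authors' deposited table, which is 7.28-fold lower in C (95% interval 6.61 to 8.03). Its p is listed as 0, as it is for 29 genes in all. By Wald statistic it ranked 17 among the 1802 called protein-coding genes higher in V. By fold change it ranked 735.

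BBC3 (ENSG00000105327), at chr19:47220822-47232766 on the minus strand, had nearly the same fold change as CDKN1A. Its listed mean was 191 normalised counts in the authors' deposited table, with derived levels of 48.8 in C and 334 in V. The listed log2 fold change was -2.78 ± 0.17 in the authors' deposited table (adjusted p = 1.62e-59, the authors' DESeq2 Wald test), or 6.86-fold lower in C (95% interval 5.45 to 8.62). The intervals of BBC3 and CDKN1A overlapped. Neither overlapped the interval of any of the other 3 members.

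BTG2 (ENSG00000159388), at chr1:203305491-203309602 on the plus strand, had the smallest fold change of the 5. Its listed mean was 447 normalised counts in the authors' deposited table, and its derived levels were 242 in C and 652 in V. The listed log2 fold change was -1.43 ± 0.09 in the authors' deposited table (adjusted p = 6.94e-54, the authors' DESeq2 Wald test), or 2.69-fold lower in C (95% interval 2.38 to 3.04). Its interval overlapped those of MCL1 and BCL2L1, and not those of the other p53 targets CDKN1A and BBC3.

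The prosurvival genes MCL1 and BCL2L1 had nearly equal fold changes. MCL1 (ENSG00000143384), at chr1:150574551-150579738 on the minus strand, had a log2 fold change of -1.51 ± 0.07 in the authors' deposited table (adjusted p = 9.56e-107, the authors' DESeq2 Wald test), with derived levels of 1074 in C and 3062 in V. BCL2L1 (ENSG00000171552), at chr20:31664452-31723989 on the minus strand, had a log2 fold change of -1.51 ± 0.07 in the authors' deposited table (adjusted p = 7.58e-94, the authors' DESeq2 Wald test), with derived levels of 460 in C and 1309 in V. Both were 2.85-fold lower in C, with 95% intervals of 2.60 to 3.13 for MCL1 and 2.58 to 3.14 for BCL2L1. The table counts genes and not transcripts, so the long and short forms of either gene cannot be told apart.

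**Figure D1:**
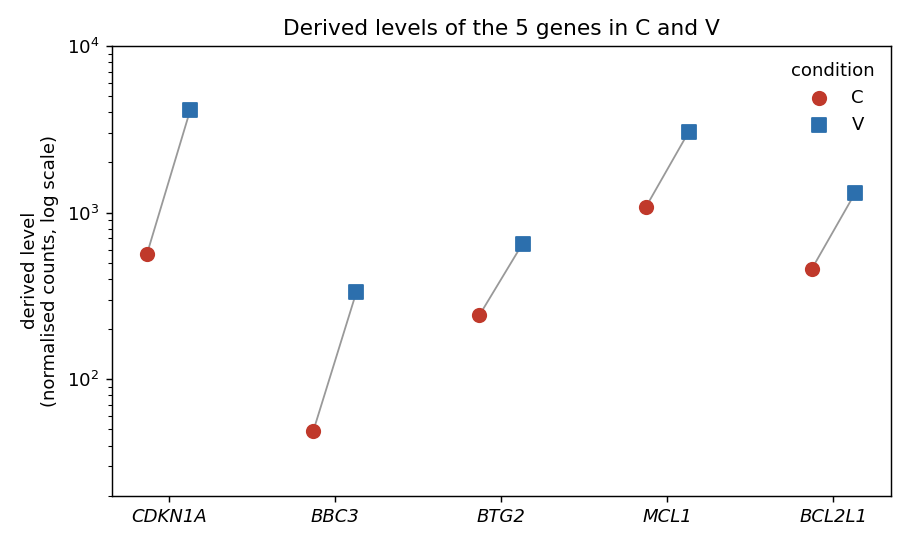
Derived levels of CDKN1A, BBC3, BTG2, MCL1 and BCL2L1 in C (red circles) and V (blue squares), in normalised counts on a log axis; grey lines join the 2 levels of a gene and no error can be drawn. The lines of CDKN1A (566 in C, 4121 in V) and BBC3 (48.8 in C, 334 in V) are steeper than those of BTG2, MCL1 and BCL2L1.

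Per kilobase of exon, the order of the members differed between the conditions. In C, MCL1 came first with 246 normalised counts per kilobase, followed by CDKN1A with 185, BCL2L1 with 139, BTG2 with 87.9 and BBC3 with 15.3. In V, CDKN1A came first with 1351 per kilobase, followed by MCL1 with 700, BCL2L1 with 395, BTG2 with 236 and BBC3 with 105. Only CDKN1A and MCL1 changed places. No spread can be given for neighbours in these orders, since the levels are derived, and the lengths are unions of all annotated exons.

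The ratio of PUMA RNA to prosurvival RNA also differed on the per-kilobase scale. The ratio of BBC3 to MCL1 was 0.0624 in C and 0.150 in V, and that of BBC3 to BCL2L1 was 0.111 in C and 0.266 in V. The ratio of MCL1 to BCL2L1 was 1.77 in C and 1.77 in V. CDKN1A stood at 2.11 times BTG2 in C and 5.72 times BTG2 in V. These are ratios of RNA and say nothing of protein.

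Each member ranked higher by mean than by fold change, and 3 of them ranked low by fold change. Among the 1802 called protein-coding genes higher in V, CDKN1A ranked 29, MCL1 40, BCL2L1 141, BTG2 329 and BBC3 573 by mean. By fold change CDKN1A ranked 735 and BBC3 758, while MCL1 ranked 1418, BCL2L1 1420 and BTG2 1501. By the difference in derived level, V above C, CDKN1A ranked 25 and MCL1 55. Standard errors were set against those of called protein-coding genes with a mean within 1.5 times the member's. A smaller one was found in 5.47% of such genes for BCL2L1, 9.61% for BTG2, 24.8% for MCL1, 36.5% for CDKN1A and 59.6% for BBC3, so the error of BBC3 was larger than most.

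The listed errors exceeded counting error for every member. With 3 libraries of equal size on each side, counting alone would give a standard error of 0.04 for CDKN1A, 0.13 for BBC3, 0.06 for BTG2, 0.03 for MCL1 and 0.05 for BCL2L1 on the log2 scale. The listed errors were 1.32 times that for BBC3 and up to 2.31 times for MCL1. On the authors' fitted model, the remainder corresponds to a coefficient of variation between libraries of 4.83% (BCL2L1) to 9.30% (BBC3). The spread of each gene between libraries could not be seen, as the table has no column per library.

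**Figure D2:**
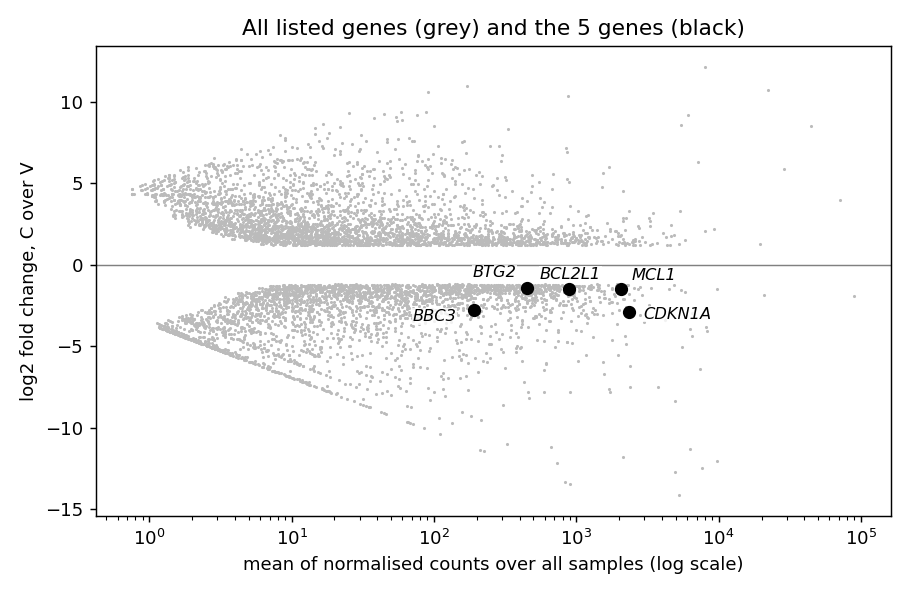
Listed mean of normalised counts (log axis) against log2 fold change of C over V for the 6018 listed genes (grey) and the 5 members (black). The empty band around 0 is the selection at an absolute log2 fold change of 1.20; BTG2, MCL1 and BCL2L1 lie near its edge at -1.43 to -1.51, and CDKN1A and BBC3 lie lower at -2.86 and -2.78.

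Other p53 target genes that were listed lay on the same side. Of the 32 genes of this list 13 were listed, all 13 were called, and each of them was higher in V; 3 of them are members. Of all listed protein-coding genes 92.6% were called, and 65.9% of the called ones were higher in V. The list was chosen with these values known, so nothing is read from the count of 13. The other 10 listed targets had a median log2 fold change of -1.95, between the values of BBC3 and MCL1. Those with the smallest p beside CDKN1A were PERP, a membrane protein of desmosomes and apoptosis (-2.12 ± 0.09 in the authors' deposited table), GADD45A, a growth arrest protein (-3.65 ± 0.17 in the authors' deposited table), and PMAIP1, the BH3-only protein NOXA (-3.20 ± 0.17 in the authors' deposited table). MDM2, the ligase that degrades p53, stood at -1.22 ± 0.08 in the authors' deposited table, close to the table's limit. MDM2 had derived levels of 1376 in C and 3208 in V. The other 19 genes of the target list, BAX, SESN1 and ZMAT3 among them, were not listed. Of the 12 regulators of p53, 2 were called, the p53 relative TP73 toward C (1.54 ± 0.30 in the authors' deposited table) and MDM2 toward V.

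**Figure D3:**
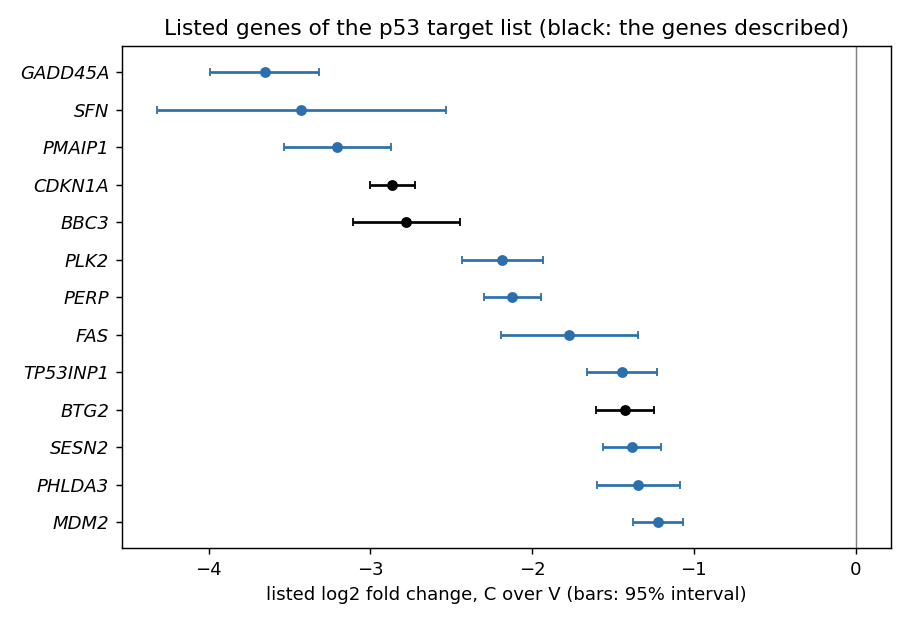
Listed log2 fold change of C over V with 95% intervals for the 13 listed genes of the p53 target list, members in black. All 13 points are below 0, from GADD45A at -3.65 to MDM2 at -1.22; CDKN1A and BBC3 lie side by side at -2.86 and -2.78.

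CDKN1A was 1 of 4 listed CDK inhibitor genes, out of 7 on the list, and each of the 4 was called toward V. Of all listed protein-coding genes 61.0% were called toward V and 31.6% toward C. Nothing is read from the counts of these short lists, which were chosen with the values known. CDKN2B, which encodes the CDK4 and CDK6 inhibitor p15, had a larger fold change than CDKN1A (-6.57 ± 0.40 in the authors' deposited table) at derived levels of 4.24 in C and 403 in V. CDKN2A, which encodes p16 and p14ARF, stood at -2.62 ± 0.18 in the authors' deposited table, near CDKN1A. CDKN1B, which encodes p27, stood at -1.22 ± 0.07 in the authors' deposited table. On the side of the kinases that p21 inhibits, 3 of 16 cyclin, CDK and pocket protein genes were called, and all 3 were higher in C: the mitotic kinase CDK1 (2.30 ± 0.07 in the authors' deposited table), the transcription factor E2F1 (1.84 ± 0.12 in the authors' deposited table) and the cyclin CCNA2 (1.34 ± 0.12 in the authors' deposited table). CDK2, CDK4, CDK6, PCNA and RB1 were not listed.

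BBC3 was joined by the other listed BH3-only genes. Of 8 such genes, 3 were listed and called, all higher in V: PMAIP1, whose protein binds MCL1, BBC3, and BMF (-2.71 ± 0.14 in the authors' deposited table). Beside them, 61.0% of all listed protein-coding genes were called toward V, and nothing is read from the count of 3. The derived level of PMAIP1 was 40.2 in C and 370 in V, and that of BMF was 74.1 in C and 484 in V, beside the values given above for BBC3. The intervals of these 3 BH3-only genes overlapped, and each lay below those of MCL1 and BCL2L1. BCL2L11, BAD, BID, BIK and HRK were not listed.

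Among the 6 prosurvival genes MCL1 and BCL2L1 were the called ones. BCL2A1 was listed but not called, at -3.08 ± 1.47 with an adjusted p of 0.0786 in the authors' deposited table (the authors' DESeq2 Wald test), and its derived level was 0.420 in C and 3.55 in V. BCL2, BCL2L2 and BCL2L10 were not listed. The pore-forming genes BAX and BAK1, on whose products BBC3, MCL1 and BCL2L1 converge, were not listed either, nor was the related BOK. Of 7 factors of MCL1 turnover 1 was called, the mitochondrial ligase MARCHF5 (-1.59 ± 0.11 in the authors' deposited table), with a fold change near that of MCL1. Of all listed protein-coding genes 92.6% were called, 61.0% toward V, and nothing is read from the counts of these lists.

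Caspase and death receptor genes that were called lay on the V side and IAP genes on both sides, beside 65.9% of all called protein-coding genes on the V side. Of 9 apoptosome and caspase genes 3 were called, all higher in V, among them the initiator CASP10 (-1.92 ± 0.23 in the authors' deposited table). Its interval lay above that of BBC3. The 9 genes of IAP proteins and their antagonists were divided, with 2 higher in C, BIRC5 (1.59 ± 0.08 in the authors' deposited table) and NAIP (1.65 ± 0.24 in the authors' deposited table), and 2 higher in V, BIRC3 (-6.71 ± 0.16 in the authors' deposited table) and BIRC2 (-1.27 ± 0.13 in the authors' deposited table). BIRC5 encodes survivin, which also acts in mitosis, and BIRC3 is a known NF-kB target. Of 13 death receptor, ligand and adaptor genes 5 were called, each higher in V, with a median of -1.77. They were the receptors TNFRSF1A (-1.37 ± 0.09 in the authors' deposited table), TNFRSF21 (-1.38 ± 0.10 in the authors' deposited table) and FAS (-1.77 ± 0.22 in the authors' deposited table), the ligand TNFSF10, or TRAIL (-3.57 ± 0.27 in the authors' deposited table), and the decoy receptor TNFRSF10C, named here after its values were seen, whose derived C level of 0.330 leaves the size of its fold undetermined.

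**Figure D4:**
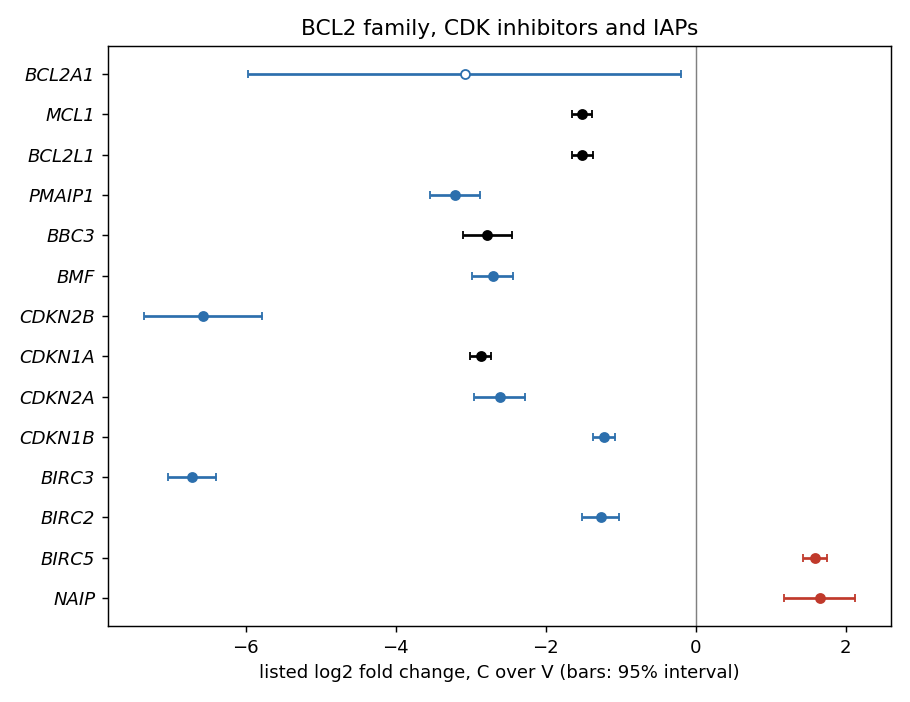
Listed log2 fold change of C over V with 95% intervals for the listed prosurvival BCL2, BH3-only, CDK inhibitor and IAP genes, members in black, the open symbol listed but not called. MCL1 and BCL2L1 coincide at -1.51, the BH3-only genes lie between -3.20 and -2.71, and BIRC5 and NAIP are the ones above 0.

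BTG2 was accompanied by 1 relative. Of 16 BTG, TOB and CCR4-NOT genes 2 were called, BTG2 and TOB1 (-1.32 ± 0.07 in the authors' deposited table), an antiproliferative protein of the same family. TOB1 had derived levels of 559 in C and 1397 in V. None of the CCR4-NOT subunits on the list was listed in the table used here. Over all 12 lists, 36 of 129 distinct genes were called, 6 toward C and 30 toward V, beside 65.9% of all called protein-coding genes on the V side. The lists were chosen with these values known, so nothing is read from that count.

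**Figure D5:**
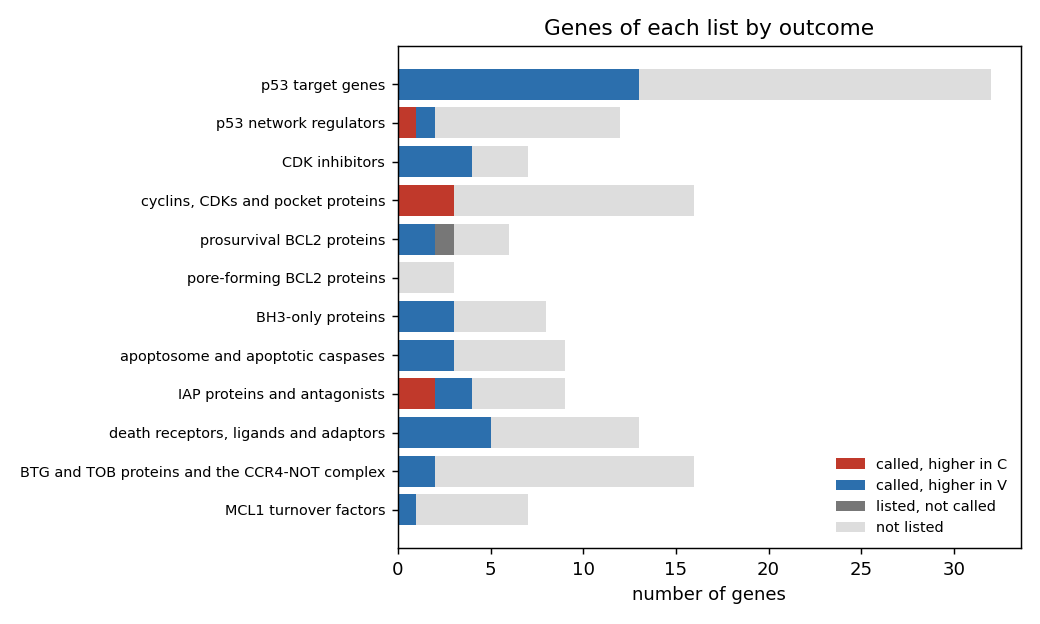
Number of genes in each of the 12 lists that were called toward C (red), called toward V (blue), listed but not called (dark grey) or not listed (light grey). The p53 target list has 13 called genes on the V side and the cyclin, CDK and pocket protein list has 3 on the C side.

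Some genes around the members were listed, counted within 100 kb of the start of each member by GENCODE release 29. Listed were 1 of 10 genes near CDKN1A, 2 of 6 near BBC3, 1 of 8 near BTG2, 3 of 13 near MCL1 and 1 of 6 near BCL2L1. The share of all annotated genes that were listed was not worked out, so nothing is read from these counts. The neighbour of BCL2L1, the spindle factor TPX2, starts 15.3 kb upstream of it and went the other way, with 1.69 ± 0.07 in the authors' deposited table and derived levels of 1864 in C and 578 in V. The other neighbours had means under 17 normalised counts. Near BBC3, INAFM1 and the complement receptor C5AR1 were higher in V, as was FMOD, a matrix proteoglycan, near BTG2. Near MCL1, the matrix protein gene ECM1 and ADAMTSL4-AS1 were higher in V and FALEC was higher in C. RNU1-88P near CDKN1A was higher in C.

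Several annotated genes overlap the members, and the counting strand is not given. On the strand opposite to the member, DINOL overlaps CDKN1A, MIR3190 overlaps BBC3, and ABALON and AL117381.1 overlap BCL2L1; none was listed. On the same strand MIR3191 lies within BBC3 and was not listed. ADAMTSL4-AS1 shares 2 bases with MCL1 on the same strand and was listed, with the higher value in V (-1.38 ± 0.47 in the authors' deposited table). Its derived levels were 8.18 in C and 21.2 in V.

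Genes with the most similar values were found for each member among called genes with a mean within 1.5 times its own, over the single comparison. The nearest to CDKN1A were MIR3648-1 (-2.93 ± 0.51 in the authors' deposited table) and PTPRB (-2.79 ± 0.19 in the authors' deposited table), out of 94 candidates. The nearest to BBC3 were ZFAND2A and CPEB2, at -2.76 and -2.75 in the authors' deposited table, out of 483. RETSAT and LACTB2 lay nearest to BTG2, ADAM10 and NFE2L1 to MCL1, and PODXL and SLK to BCL2L1, each within 0.02 of the member's log2 fold change.

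AU-rich pentamers, which mark many short-lived messages, were counted in the 3′ untranslated region of 1 principal GENCODE transcript per gene. MCL1 held 10 copies of ATTTA in 2819 bases, or 3.55 per kilobase, against a median of 1.41 over 18924 protein-coding genes and of 1.88 over the 7098 whose region has 800 to 3000 bases. CDKN1A held 3 in 1537 bases, BCL2L1 held 3 in 1497, BTG2 held 2 in 2164 and BBC3 held 0 in 975. The longer AU-rich pattern TATTTAT was present 3 times in MCL1, 1 time in BTG2 and 1 time in BCL2L1, was not found in CDKN1A or BBC3, and occurred in 28.8% of all genes and in 36.8% of those with 800 to 3000 bases. One stretch per gene is shown with the pattern in capitals, read in GRCh38 from chr1:150575165-150575191 on the minus strand, chr1:203307529-203307555 on the plus strand and chr20:31664683-31664709 on the minus strand.
MCL1: ataagccgctTATTTATatcatgtatc
BTG2: aatgaagagcTATTTATatatattatt
BCL2L1: agcgtgtctgTATTTATgtgtgaggag
The pattern was in 3 of the 5 members. Among called protein-coding genes with such a region, it was in 29.5% of 877 higher in C (median region 948 bases). It was in 35.0% of 1776 higher in V (1118 bases). Of these, genes higher in C had a median of 1.56 pentamers per kilobase and genes higher in V also 1.56.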

How the data were processed

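RNA was sequenced from C42-B-Abi and parental C42B cells, 3 libraries each, from 1 µg of total RNA as 50 bp single reads, per the labels' protocols. The labels do not say that libraries came from separate cultures, so listed p-values measure spread that may be technical. Of the 2 library kits in the protocols, 1 is for mRNA and 1 for stranded total RNA. One deposited table was used, made by the authors with DESeq2. The mean over all samples is a signal in normalised counts, per the file headers. The fold change is log2 of C over V, per the file headers. Deposited score columns hold the standard error of that value and the Wald statistic. The p-value and its Benjamini-Hochberg adjusted p-value are the authors' own, per the file headers. The submitters' processing notes name FastQC and Cufflinks 2.2.1; which aligner, counter and build were used is not given in the sources used here.

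No test across libraries was run, because the table has no column per library; the design foresaw this case and prescribed description only. An adjusted p of 0 next to a larger p (4 genes) was treated as missing. Recomputed from the Wald statistic, 5989 of 5989 p-values above 0 lay within 1% of those listed. With Python 3.11.15 and pandas 2.3.3, 95% intervals were taken as the fold change ± 1.96 standard errors, and levels from the mean and fold change with equally many libraries per side, a step tested on simulated data. Intervals cover the authors' model error only. Gene types, positions and exon lengths came from GENCODE release 29 (GRCh38), holding 5935 of the identifiers, which need not be the authors' annotation. In the 12 gene lists up to 4 called genes per direction with the smallest p were named, and in the BCL2 lists all called ones; genes given as not listed were chosen freely. Values of some named genes are not reported here. The members, lists and motifs were chosen with earlier results of these data known. Alternatives were a stricter adjusted p, a larger fold change, an interval beyond 1, a mean of at least 100, protein-coding genes alone and unequal library numbers.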

Additional observations from a re-analysis of the deposited data

How the results depend on the processing

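All 5 members kept their call with an adjusted p under 0.01, where 36.5% of listed genes were called and higher in V, with a 95% interval wholly beyond a log2 fold change of 1 (31.8%), and with a mean of at least 100 (14.6%). With a limit of 2 on the absolute log2 fold change, 2 members remained called, CDKN1A and BBC3, where 26.2% of listed genes were called and higher in V; by construction BTG2, MCL1 and BCL2L1 then drop out. Under the same limit, counts higher in C came to 1 for the cyclins, CDKs and pocket proteins and 0 for the p53 regulators and IAP proteins. Counts higher in V came to 7 for p53 targets, 2 for death receptors, 1 for IAP proteins, and 0 for p53 regulators, prosurvival BCL2 genes, caspases, BTG and CCR4-NOT genes and MCL1 turnover factors. With a mean of at least 100, counts were 0 (p53 regulators) and 1 (IAP proteins) higher in C and 2 (death receptors) higher in V. With the interval beyond 1 the p53 regulators higher in C came to 0. The share of all listed genes higher in C under these limits was not worked out, so nothing is read from these counts. Taking 3 libraries on one side and 2 on the other scaled the derived levels by 0.867 to 1.18. Of the 98 alternative values 62 were rated the same, 3 weaker and 33 moved. The alternatives left each fold change as listed, so no direction could reverse. Among protein-coding genes alone, 31.6% were called toward C and 61.0% toward V, against 46.0% and 43.4% of all listed genes. No paired analysis was possible because the table has no column per library; for the same reason no library could be left out and no other normalisation tried. Depth per library is unknown, so counting error could be set only from derived levels.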

Other observations

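Genes of lytic cell death, a list chosen after the table was seen, had 4 called members of 15, none higher in C and 4 higher in V. Of all called protein-coding genes 65.9% were on the V side, and nothing is read from the count of 4. The inflammatory caspase CASP4 stood at -2.36 ± 0.17 in the authors' deposited table, between BBC3 and MCL1, with derived levels of 48.1 in C and 246 in V. GSDMB, a gasdermin, stood at -1.70 ± 0.21 in the authors' deposited table and NLRP1, an inflammasome sensor, at -2.55 ± 0.83. CASP1 had a derived level of 0.171 in C and 24.8 in V, which leaves its fold change ill-defined. ZBP1 was listed but not called, and MLKL, RIPK3, GSDMD and GSDME had no row.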
